A study of Mus musculus with 5 samples.

Results

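Gene expression in peritoneal cells was compared between mice injected with ovalbumin plus alum and mice injected with ovalbumin alone. Ovalbumin (OVA) is an egg-white protein used as a model antigen, and alum is an aluminium salt used as a vaccine adjuvant. Both groups were female BALB/c mice. One received 25 µg OVA with 200 µg alum and the other 25 µg OVA, each by the intraperitoneal route, and cells were washed out of the cavity 2 h later. The comparison used 2 of the 5 arrays of the series. The other arrays came from mice given PBS, 50 µg of an agent labelled AEPS, or 25 µg OVA with 50 µg AEPS, and their values are given beside those of the pair. The labels give no age and do not say whether an array held RNA from 1 mouse or from a pool. Each group had 1 array, so no test between groups was possible, and the spread between animals is not known. A level is the log2 signal of a gene's probe minus the log2 of its array's 75th percentile, and a difference is the level with OVA+Alum minus the level with OVA. Of 20117 genes with a value on every array, 15057 were well above background on at least 1 of the pair and were compared.

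The lavage holds large and small resident macrophages, B cells, T cells and mast cells, and after an irritant injection it also holds neutrophils and monocytes that enter from blood. Alum is known to draw neutrophils into the cavity and to make the large resident macrophages hard to recover by lavage. The cavity is lined by mesothelium, an epithelium-like layer on connective tissue, whose cells can be shed into the fluid. In bulk RNA, fewer cells of a type and less RNA per cell cannot be told apart.

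All 5 arrays were on 1 slide, and on each of them at least 56.7% of probes were well above background. Spots at least 4-fold brighter than on every other array numbered 389 on the OVA array and 70 on the OVA+Alum array. On the OVA array 78.7% of these lay side by side in small patches, against 12.9% on the OVA+Alum array. The patch areas took up 14.7% of the spots of the OVA array and 1.12% of those of the OVA+Alum array. The probes of 2454 compared genes lay in a patch area of the OVA array. The OVA+Alum and PBS arrays also shared column 4 of the slide. On both, 163 compared genes were at least 2-fold below, and 12 at least 2-fold above, each of the other 3 arrays. Each of those 3 arrays had a column of its own, so slide column and treatment cannot be told apart for these genes. Results were also counted without patch areas and without these column genes, and both features are named beside each gene they touch. Both sets rest on the levels compared here: patches of the OVA array are found from neighbouring spots bright with OVA, and most column genes are low with OVA+Alum. Leaving them out therefore takes out mainly lower genes by construction. Their part in the differences was not tested.

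**Figure D1:**
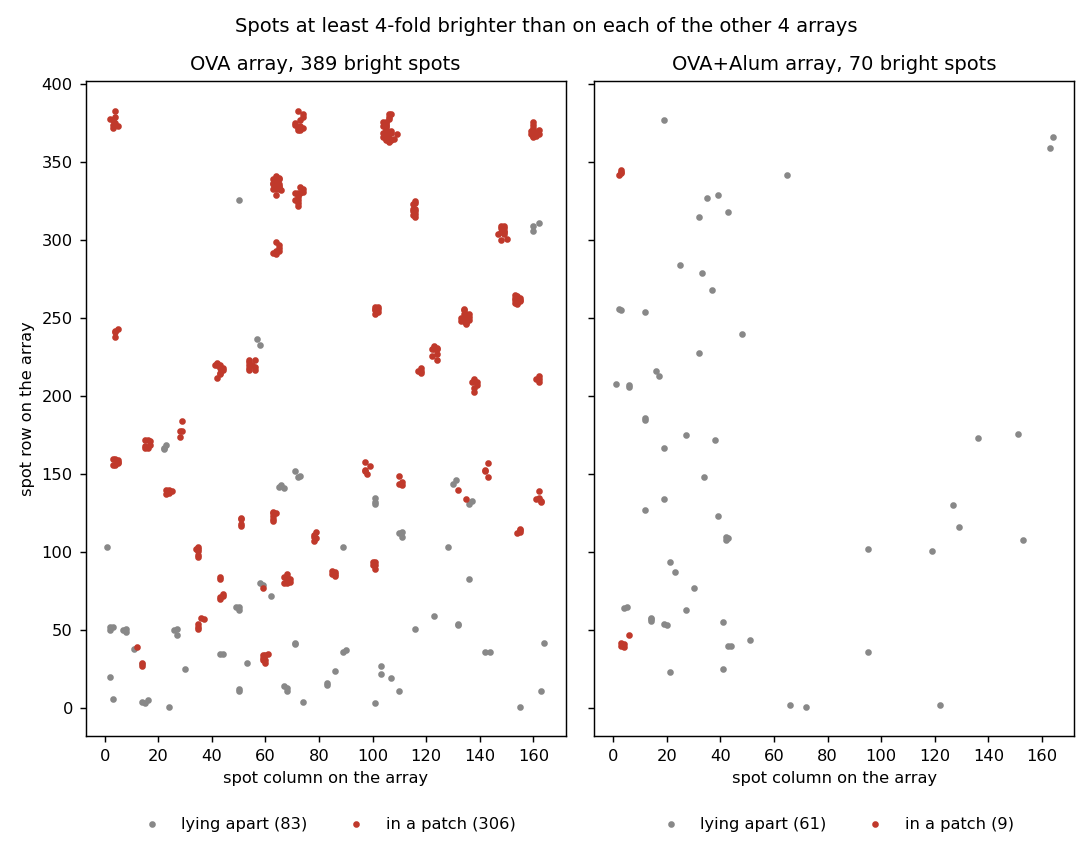
Position on the array (spot column and spot row) of spots at least 4-fold brighter than on each of the other 4 arrays, for the OVA array (389 spots) and the OVA+Alum array (70 spots). Red points lie in a patch (306 on the OVA array, 9 on the OVA+Alum array) and grey points lie apart.

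With alum, 625 of the 15057 genes were at least 2-fold higher (4.15%) and 820 were at least 2-fold lower (5.45%). The middle of the distribution was close to 0, with a median difference of 0.08 and 90.4% of genes within 2-fold. The error that the scanner software assigned to each spot gave a median technical SE of 0.204 for a difference, which covers the array and not the animals. The share of genes past 2-fold depended on brightness. Below a mean level of -4 on the pair, 267 of 1902 genes were higher and 267 lower, whereas at a mean level of 2 or more 58 of 5180 were higher and 89 lower. The OVA+Alum array held the highest of the 5 levels for 488 of the 625 higher genes. For 593 of the 820 lower genes it held the lowest. The choice of genes by OVA+Alum against OVA favours such ranks. OVA+Alum was at least 2-fold above each other array for 159 of the 625, and at least 2-fold below each for 102 of the 820.

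Of the 820 lower genes, 250 had their probe in such a patch area (30.5%), against 87 of the 625 higher genes (13.9%) and 15.6% of genes within 2-fold. Outside patches and column genes, 518 of 12319 genes were higher and 435 lower, and the share of higher genes among those past 2-fold was 54.4% in place of 43.3%, a shift in the direction that the choice of genes sets. Scaling to spike-in probes put that share at 32.0%, and normexp background correction with quantile normalization put it at 30.3%. More genes were lower than higher under both of these settings, as in the main count.

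**Figure D2:**
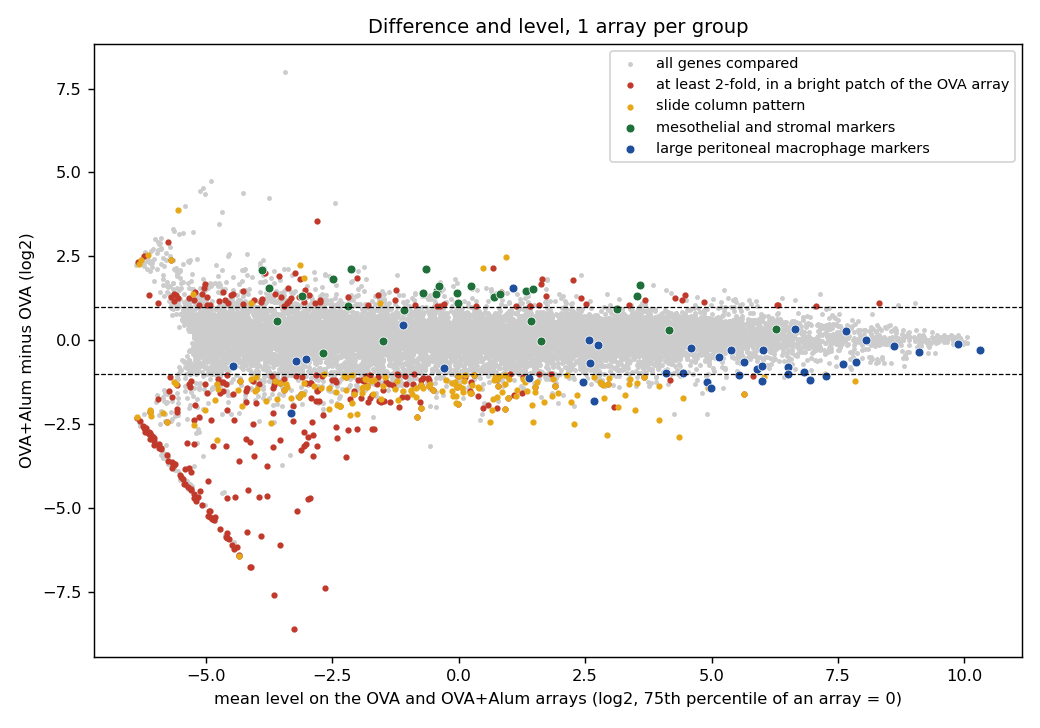
Difference (OVA+Alum minus OVA, log2) against the mean level on both arrays for the 15057 compared genes, with dashed lines at 2-fold. Genes past 2-fold in patch areas of the OVA array (red) make up most of the far lower left, while the mesothelial and stromal markers (green) lie mainly above the upper line and the large peritoneal macrophage markers (blue) mainly below 0.

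Of 46 gene lists, the mesothelial and stromal markers were displaced farthest upward. Their 29 measured members had a median difference of 1.37, and 20 were at least 2-fold higher and 0 lower. The neutrophil-recruiting chemokines and receptors had a median of 0.80 over 7 genes, the immediate early genes 0.66 over 29, and the neutrophil markers 0.47 over 38. At the low end were chemokines outside the neutrophil-recruiting and CC groups, with a median of -0.87 over 8 genes, and the large peritoneal macrophage markers, with -0.70 over 40. The 28 housekeeping genes had a median of 0.01 and none was past 2-fold. Among these, Actb (cytoskeletal actin) differed by 0.00, Gapdh by -0.06, Ppia by -0.15 and Hprt, in a patch area of the OVA+Alum array, by -0.94.

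**Figure D3:**
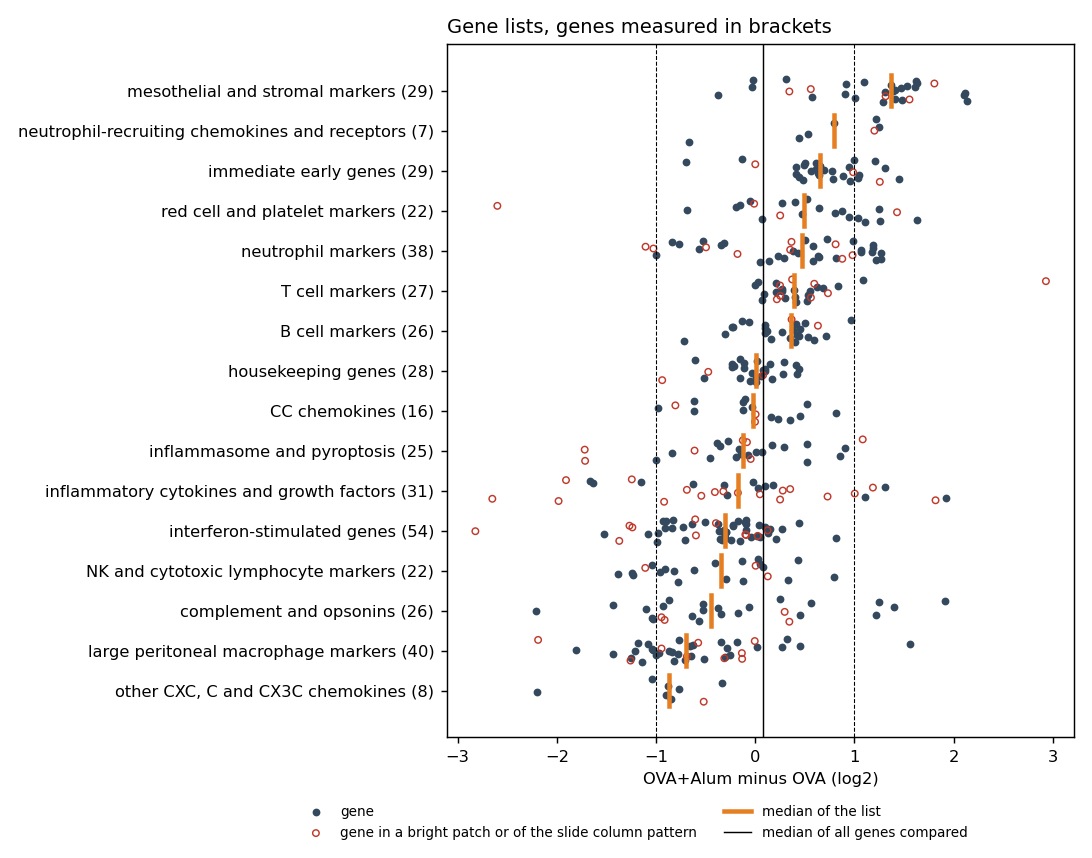
Difference (OVA+Alum minus OVA, log2) of each measured gene in a selection of the lists, 1 point per gene, with the list median (orange bar), the median of all genes (solid line) and 2-fold (dashed lines). Open red points are genes in a bright patch or of the slide column pattern. The mesothelial and stromal median is 1.37 and the large peritoneal macrophage median is -0.70.

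Genes of the mesothelial lining and of connective tissue cells were higher with alum almost as a block. The OVA+Alum array held the highest of the 5 levels for 24 of the 29 measured members and the lowest for 0. Msln, the mesothelin surface protein, had a level of -0.20 with PBS, 0.80 with AEPS, 0.05 with OVA, 0.46 with OVA+AEPS and 1.34 with OVA+Alum. Upk3b, a uroplakin that marks mesothelium, had -3.09, -2.14, -3.20, -2.26 and -1.07 in the same order, a difference of 2.13 from OVA (4.38-fold, technical SE 0.22). Wt1, the transcription factor of mesothelial cells, had -1.61, -0.85, -1.16, -0.40 and 0.31. In each of these 3 defining genes PBS and OVA had the lowest levels, the AEPS and OVA+AEPS arrays lay between, and OVA+Alum was highest.

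Lrrn4 was higher by 2.10, Igfbp5, which binds insulin-like growth factors, by 2.12, and Upk1b, in patch areas of both arrays, by 1.56. The simple-epithelium keratins Krt19, Krt7 (in a patch area of the OVA array) and Krt8 were higher by 1.41, 1.31 and 1.01. The glycoprotein Pdpn was higher by 1.47 on its brightest probe and 1.57 on a further one. These genes mark the epithelial side of the lining, and the fibroblast and matrix genes of the list lay in the same range.

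Col1a1, Col1a2 and Col3a1, which encode fibrillar collagen chains, were higher by 1.61, 1.53 and 1.37. Sparc, a matrix-associated glycoprotein, was higher by 1.63 and by 1.61 on a further probe. Lum (lumican, in a patch area of the OVA array) was higher by 1.81, Efemp1 by 1.41, Igfbp6 by 1.30, Mgp (matrix Gla protein) by 1.09, Rspo1 by 1.39 and Aldh1a1 by 1.62. The exceptions were Gpm6a at -0.37, Gas1 at -0.03 and Aldh1a2 at -0.02, named after their values were seen. A further probe of Gas1 gave 2.41, so its probes disagreed.

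Counted without patch areas and column genes, 17 of 24 members were higher and 0 lower, with a median of 1.38. Against the PBS array, which shares the slide column with OVA+Alum, 19 of 29 were at least 2-fold higher and 0 lower, where 6.46% and 5.15% of 15077 genes were. Both counts use the same OVA+Alum array. Relative to PBS the median was 0.07 with OVA, 0.67 with AEPS, 0.51 with OVA+AEPS and 1.30 with OVA+Alum. Endothelial markers did not show this displacement, with a median of -0.02 over 15 genes, of which 1 was at least 2-fold lower. They were dimmer, with 5 of the 15 below a mean level of -4 on the pair, against 0 of the 29 mesothelial and stromal genes. The endothelial adhesion molecule Pecam1 differed by 0.29, the cadherin Cdh5 by 0.64 and the receptor Kdr by -0.11, and Esam, at 1.95, was the only one at least 2-fold higher.

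Symbol families gave a related picture. Of 27 measured collagen genes, 8 reached a 2-fold increase and 0 a 2-fold decrease, with a median of 0.48. Besides the 3 named above they were Col6a1 at 1.61, Col16a1 at 1.32 and Col5a1 at 1.03, and the dim Col5a3 and Col6a5, named after their values were seen. Of 26 keratin genes, 6 were higher and 0 lower. The list of matrix proteases and repair genes went both ways, with 5 of 31 higher, 4 lower and a median of 0.16. Higher were the gelatinase Mmp2 at 1.71 and the protease Adamts1 at 1.83, besides Mmp8, Plaur and the dim matrix glycoprotein Tnc. Lower were Mmp13 of the column pattern at -1.52, Spp1, and, by bounds of at least 2.26- and 2.76-fold, the elastase Mmp12 and the collagen cross-linking enzyme Lox. The cell source of these genes was not tested.

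**Figure D4:**
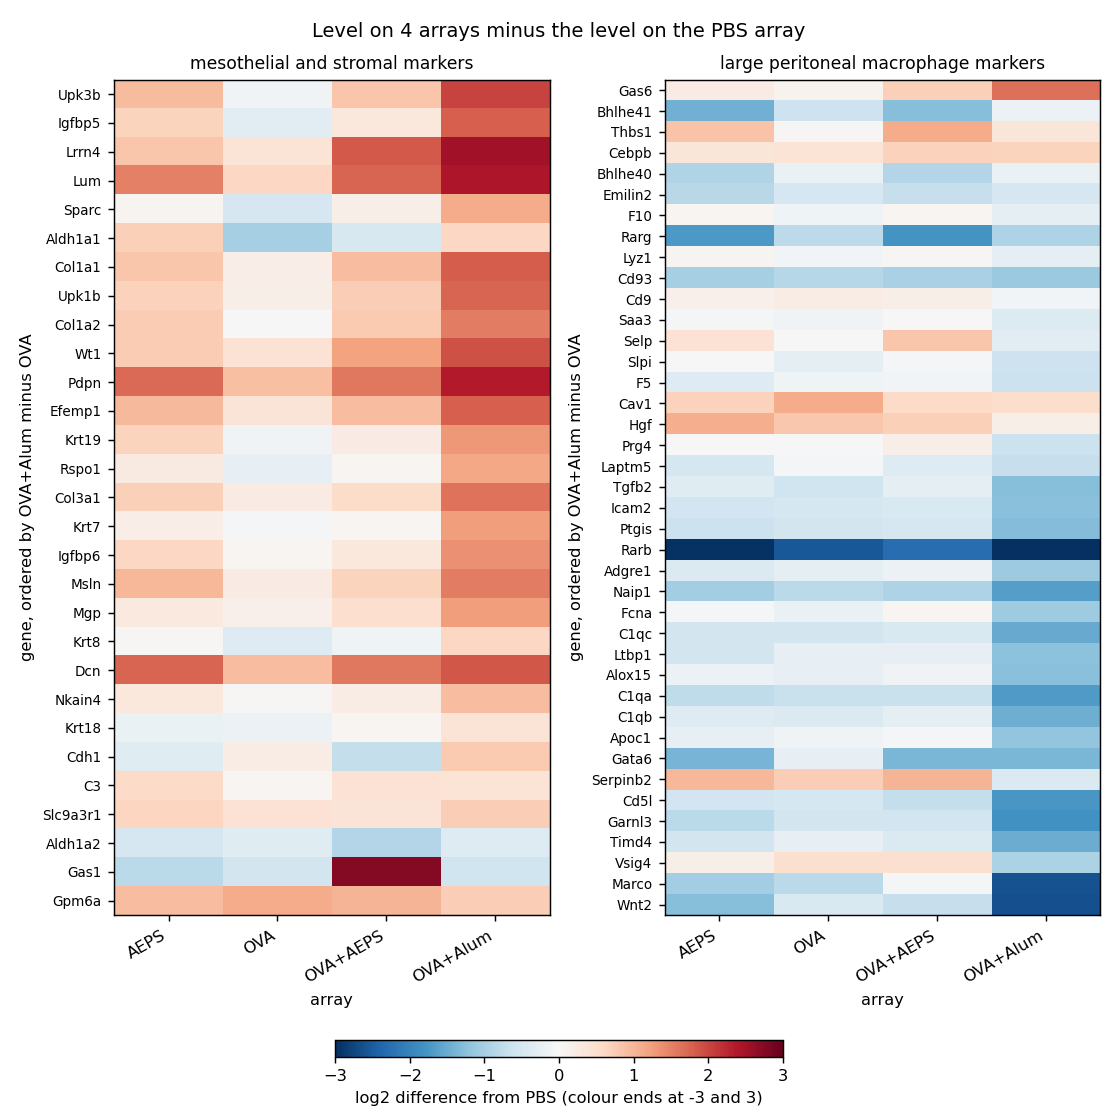
Level on the AEPS, OVA, OVA+AEPS and OVA+Alum arrays minus the level on the PBS array (log2, red above and blue below PBS) for the 29 measured mesothelial and stromal markers and the 40 large peritoneal macrophage markers. The OVA+Alum column is the reddest on the left (median 1.30) and the bluest on the right (median -1.01), while the OVA column is pale in both (0.07 and -0.25).

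Markers of the large resident macrophage were lower with alum. All 40 listed genes were measured, 11 were at least 2-fold lower and 1 was higher, and the OVA+Alum array held the lowest of the 5 levels for 30. Gata6, the transcription factor that maintains these cells, had a level of 2.20 with PBS, 0.81 with AEPS, 1.96 with OVA, 0.83 with OVA+AEPS and 0.82 with OVA+Alum. The level of Gata6 with OVA+Alum was thus close to that with AEPS or OVA+AEPS. Timd4, a receptor for phosphatidylserine, had 5.77, 5.22, 5.53, 5.33 and 4.27, with its probe in a patch area of the OVA array. Adgre1, the F4/80 antigen, had 7.18, 6.75, 6.91, 7.01 and 6.10. For Timd4 and Adgre1 the OVA+Alum array was lowest and the other 4 lay close together.

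The scavenger receptor Marco was lower by 1.80, with 4.39 with PBS, 3.58 with OVA and 1.78 with OVA+Alum. Vsig4, a complement receptor of tissue macrophages, differed by -1.43, Cd5l, a secreted macrophage protein, by -1.21, Garnl3 by -1.25 and Apoc1 by -1.09. The complement components C1qa and C1qb differed by -1.03 and -1.04, and Serpinb2, a plasminogen activator inhibitor, by -1.18. These genes are bright, and among the 32 list members at a mean level of 2 or more, 9 were at least 2-fold lower, where 89 of 5180 genes that bright were. Wnt2, at -2.19, is dim and lay in a patch area of the OVA array.

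Other members moved less or the opposite way. Gas6, a bridging ligand for the receptors that clear dying cells, was higher by 1.56. F10 (coagulation factor X) and F5 (factor V), known products of these macrophages, differed by -0.13 and -0.52. Without patch areas and column genes, 9 of 31 were lower and 1 higher, with a median of -0.77. Against PBS, 20 of 40 were at least 2-fold lower, and the median was -1.01 with OVA+Alum and -0.25 with OVA.

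Macrophage genes also stood in lists that were not specific to a cell type. Among 33 pattern recognition receptors 8 were lower and 1 was higher. The scavenger receptors Msr1 and Colec12 differed by -1.57 and -1.36, the lectin Cd209b by -1.02, and Tlr5, the higher one, by 1.15. Cxcl13, the B cell chemoattractant, was lower by 2.20 (4.61-fold), at 5.64 with PBS, 6.30 with AEPS, 6.01 with OVA, 6.38 with OVA+AEPS and 3.80 with OVA+Alum. The OVA+Alum array was at least 2-fold below every other array for Cxcl13. In the sterol and lipid list 5 of 37 genes were lower and 0 higher, with the lipase Lpl at -1.06. Of all genes compared, 5.45% were lower. The median of the sterol and lipid list was 0.10, near the 0.08 of all genes. Outside patches and column genes 2 of its 30 genes were lower. In the list of arginine, itaconate, nitric oxide and tryptophan enzymes 3 of 19 were lower and 0 higher, with Arg1 (arginase) at -1.17.

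The complement list held both directions. Of 26 measured genes, 5 were at least 2-fold lower and 4 higher, with a median of -0.45. Among the lower ones, besides C1qa and C1qb, was Cd55, a decay-accelerating factor, at -1.10. Higher were Serping1 (C1 inhibitor) at 1.39, Clu (clusterin) at 1.24, C1s1 at 1.22 and Ptx3, a soluble pattern-recognition protein, at 1.92. C3 differed by 0.34 and Cfb by -0.91, both in patch areas of the OVA array.

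Neutrophil genes were already higher in OVA than in PBS mice and were on balance higher again with alum. Of 38 measured markers, 8 lay past 2-fold upward and 3 downward, and the median difference was 0.47. Relative to PBS the median was 1.16 with OVA, 1.37 with AEPS, 1.21 with OVA+AEPS and 2.03 with OVA+Alum. S100a8 and S100a9, the abundant calprotectin subunits, differed by only 0.05 and 0.14. Mmp8, the neutrophil collagenase, had a level of 1.75 with PBS, 4.76 with AEPS, 4.07 with OVA, 4.35 with OVA+AEPS and 5.34 with OVA+Alum. Cxcr2, the chemokine receptor of neutrophils, had 2.07, 4.05, 4.42, 3.60 and 5.63. Both were lowest with PBS and highest with OVA+Alum, as was the decoy receptor Il1r2, with a difference of 1.27 from OVA.

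Trem1, an activating receptor, differed by 1.19, G0s2 by 1.18, the Mas-related receptors Mrgpra2a and Mrgpra2b by 1.07 and 1.18, and the stefin Stfa1 by 1.07. The related sequences within the Mrgpra2 pair and within the stefins may share hybridization. Lower were the formyl peptide receptor Fpr2 at -1.11 and the lectin Clec4e at -1.03, both of the column pattern. The granule protease Prtn3 lay almost exactly 2-fold lower. Without patch areas and column genes 8 of 29 were higher and 1 lower. The OVA+Alum array held the highest of the 5 levels for 22 of the 38.

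Neutrophil-attracting chemokines did not follow their receptors evenly. Cxcl1 differed by -0.67, Cxcl2 by 0.44 and Cxcl5 by 0.53. Cxcl3, in a patch area of the OVA array, was higher by 1.20, and Ppbp, a platelet chemokine, was at least 2.38-fold higher, above background with alum and not with OVA. Cxcl1 had 6.69 with PBS, 8.38 with AEPS, 7.65 with OVA, 8.55 with OVA+AEPS and 6.98 with OVA+Alum, so it was higher on both AEPS arrays than with alum. Of 16 CC chemokines none was past 2-fold in either direction. Ccl2, the monocyte chemoattractant, in a patch area, differed by 0.00, Ccl7 by 0.35 and Ccl12 by 0.23. The 19 monocyte markers had a median of -0.11, with 3 at least 2-fold lower and 0 higher. Of all genes compared, 5.45% were lower. The lower monocyte markers were the receptor Ccr2 at -1.30, Ms4a6c at -1.41 and the proteoglycan Vcan, of the column pattern, at -1.41. Relative to PBS the median of the list was 0.41 with OVA+Alum and 0.43 with OVA.

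Immediate early genes, transcribed within minutes of a stimulus, were higher with alum as a group. Of 29 measured, 6 were at least 2-fold higher and 0 lower. The median relative to PBS was 0.06 with OVA, -0.16 with AEPS, 0.01 with OVA+AEPS and 0.90 with OVA+Alum, and the OVA+Alum array held the highest level for 20. Fosb, an AP-1 subunit, had a level of -0.78 with PBS, -0.95 with AEPS, -1.08 with OVA, -0.13 with OVA+AEPS and 0.37 with OVA+Alum. Fos, in patch areas of both arrays, had 3.62, 2.47, 3.66, 3.16 and 4.91. Egr1, a zinc-finger factor, had 4.89, 3.52, 5.22, 3.74 and 6.17, a difference of 0.95 from OVA. For Fos and Egr1 the 2 arrays with AEPS were lowest and OVA+Alum was highest.

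Egr2 was higher by 1.04, Csrnp1 by 1.20, Fosl2 by 1.03 and the small Maf factor Maff by 1.31. Dusp1, a phosphatase that turns off MAP kinases, was just short of 2-fold higher, while Atf3, a stress-induced factor, differed by 0.49. Maff and Dusp1 were also high with OVA+AEPS, at 2.81 and 6.20 against 2.97 and 5.88 with OVA+Alum.

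**Figure D5:**
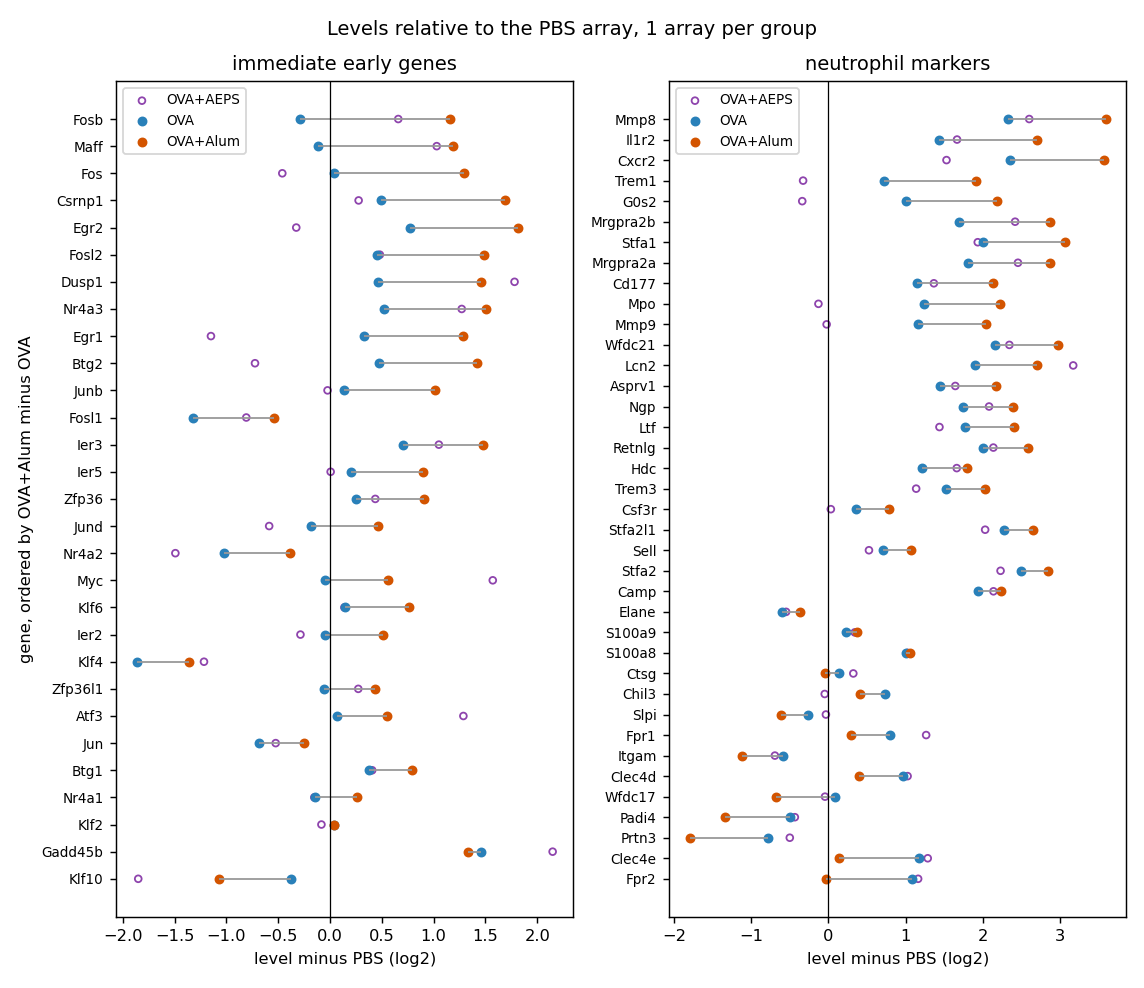
Level minus the PBS level (log2) for the 29 immediate early genes and 38 neutrophil markers with OVA (blue), OVA+Alum (orange) and OVA+AEPS (open circles), with genes ordered by OVA+Alum minus OVA. Most orange points lie to the right of the blue points, and the median shift from PBS with OVA+Alum is 0.90 on the left and 2.03 on the right.

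Promoter sequence of 3 immediate early genes is shown because they were among the list's larger differences and hold a known signal-response element. The elements searched were the CArG box, bound by serum response factor, and the cAMP response element (CRE) TGACGTCA. Both strands were searched, and the motifs do not overlap in the sequences shown. In the 250 bases before the start, a CArG box lay in 1.47% and a CRE in 1.55% of 32851 RefSeq promoter windows. Of 24 listed immediate early genes with a window, 2 held a CArG box (Egr2 and Zfp36) and 3 a CRE (Btg2, Dusp1 and Maff). The 160 bases before the start, from RefSeq on GRCm38.p6, are written 5′ to 3′ on the gene's strand with the element in capitals. Egr2 lies at chr10:67537406-67537565 (plus strand), Maff at chr15:79347360-79347519 (plus strand) and Dusp1 at chr17:26508473-26508632 (minus strand).
Egr2: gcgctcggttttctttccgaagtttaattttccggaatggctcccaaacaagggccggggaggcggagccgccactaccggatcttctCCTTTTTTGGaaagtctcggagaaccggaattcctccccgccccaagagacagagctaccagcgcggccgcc
Maff: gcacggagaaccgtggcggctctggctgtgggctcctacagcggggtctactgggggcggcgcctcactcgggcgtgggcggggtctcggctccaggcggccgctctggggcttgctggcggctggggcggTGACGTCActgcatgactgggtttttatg
Dusp1: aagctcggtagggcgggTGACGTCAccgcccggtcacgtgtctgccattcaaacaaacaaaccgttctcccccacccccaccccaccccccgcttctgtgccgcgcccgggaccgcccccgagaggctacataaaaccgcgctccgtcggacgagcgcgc
The CArG box of Egr2 begins 72 bases before the start, and the CRE begins 29 bases before it in Maff and 143 in Dusp1.

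Cytokine genes went both ways. Of 31 inflammatory cytokines and growth factors, 6 were at least 2-fold higher and 7 lower, and 17 of the 31 lay in patch areas. Outside patches and column genes 3 of 13 were higher and 3 lower. Osm, oncostatin M of the interleukin 6 family, had a level of 1.46 with PBS, 0.94 with AEPS, 1.46 with OVA, 0.51 with OVA+AEPS and 3.38 with OVA+Alum. Its difference from OVA was 1.92 (3.80-fold), and the OVA+Alum array stood above every other. Hbegf, a ligand of the EGF receptor, had 1.19, 2.06, 0.72, 1.95 and 2.03, so its level with alum was near that on both AEPS arrays. Csf3, which drives neutrophil production, was higher by 1.82, at 0.75 with OVA and 2.56 with OVA+Alum, and stood at 3.83 with AEPS and 3.89 with OVA+AEPS. Csf3 and the angiogenic factor Vegfa, higher by 1.19 and by 1.17 on a further probe, lay in patch areas of the OVA array.

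Il6 was lower by 1.98, at 4.15 with PBS, 5.63 with AEPS, 4.06 with OVA, 5.44 with OVA+AEPS and 2.08 with OVA+Alum. Its probe lay in a patch area of the OVA array, and the levels with PBS and OVA differed by less than 0.1. Tnf, also in a patch area, differed by -0.92. Csf2 was lower by 2.65 in such an area, and its level of -0.35 with OVA stood far above the -2.19 with PBS. Edn1 and Adm, vasoactive peptides, differed by -1.91 and -1.24 and belong to the column pattern. The dim Tslp was at least 2.28-fold lower, Spp1 (osteopontin) differed by -1.15, and Igf1 by -1.64 with further probes between -2.01 and -0.25.

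In the interleukin 1 family, Il1b differed by 0.30 (in a patch area), Il33, an alarmin of lining cells, was higher by 1.28, and Il1a was lower by 2.44. Il1a had 0.04 with PBS, 2.80 with AEPS, 1.83 with OVA, 2.62 with OVA+AEPS and -0.61 with OVA+Alum, which makes it a gene of the column pattern. Il33 had -5.84, 0.06, -2.24, -0.50 and -0.96, so both AEPS arrays stood above OVA+Alum. Alum particles are known to engage the NLRP3 inflammasome, which processes interleukin 1 beta after translation. Of 25 inflammasome and pyroptosis genes, 1 lay past 2-fold upward and 3 downward. Nlrp3 differed by 0.52, the adaptor Pycard was almost exactly 2-fold lower, and the caspases Casp1 and Casp4, both of the column pattern, differed by -1.72 each. Nlrx1, the higher one, at 1.08, lay in a patch area, and a further probe gave 0.01.

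Coagulation and fibrinolysis genes went both ways, with 5 of 26 higher, 5 lower and a median of 0.08. F3, tissue factor, which starts clotting, had 0.77 with PBS, 1.76 with AEPS, -0.41 with OVA, 1.61 with OVA+AEPS and 1.74 with OVA+Alum. It was higher than OVA by 2.15 and by 2.45 on a further probe, and the OVA array was the lowest of the 5. Its probe lay in a patch area of the OVA array. Thbd, thrombomodulin, which turns thrombin toward protein C, had 0.69, -1.42, -0.61, -1.03 and 1.54 on the arrays in the same order and is of the column pattern. Plaur, the urokinase receptor, was higher by 1.38, Plat, tissue plasminogen activator, by 1.07 and F12 by 1.13. Lower were Serpinb2, named above, Tfpi, the tissue factor pathway inhibitor, at -1.72, Fga at -1.23 with a further probe within 2-fold, and Pros1 (protein S) at almost exactly 2-fold. Tfpi2, at least 5.79-fold lower, lay in a patch area.

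Interferon-stimulated genes, which stood high on both AEPS arrays, were slightly lower with alum than with OVA. Of 54 measured, 0 lay past 2-fold upward and 6 downward, against 4.15% and 5.45% of all genes compared. The median difference of the list was -0.30. Relative to PBS the median was 0.91 for OVA and 0.67 for OVA+Alum, against 2.63 and 2.56 on the AEPS and OVA+AEPS arrays. Ifit1 differed by -0.99 and Isg15 by -0.16. Ifi44 differed by -1.52 and Ifi44l by -1.08, while the other lower genes (Ifi211, Ifit2, Eif2ak2 and Gbp7) were of the column pattern. Outside patches and column genes 2 of 43 were lower, near the share of all genes counted that way (435 of 12319). Cxcl10, an interferon-induced chemokine, had 2.35 with PBS, 8.17 with AEPS, 5.45 with OVA, 8.24 with OVA+AEPS and 4.60 with OVA+Alum, and Cxcl9 differed by -0.52.

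Of the 33 pattern recognition receptors counted above, 8 were lower and 1 higher, and outside patches and column genes 5 of 26 were lower. Among them, Tlr2 differed by 0.50, Tlr4 by -0.03 and Tlr9 by 0.20. Stress genes were mostly within 2-fold. Among 29 targets of NRF2, the oxidative stress factor, Hmox1 (heme oxygenase) was the only one past 2-fold. It had 3.46 with PBS, 3.65 with AEPS, 3.36 with OVA, 3.81 with OVA+AEPS and 4.85 with OVA+Alum, so the OVA+Alum array stood alone, and a further probe gave 1.08. The NRF2 target Nqo1 differed by -0.08, and none of 37 lysosome and autophagy genes was past 2-fold, with Ctsb, Ctsd and Lamp1 at -0.35, -0.27 and -0.39. Metal-binding Mt1 and Mt2 both differed by 0.00. Of the stress response genes, Ppp1r15a, which restores translation, was higher by 1.21, Nupr1 was lower by 1.44, and Gdf15, a stress-induced hormone of the column pattern, was higher by 2.25.

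The lymphocyte lists differed in direction. The B cell genes had a median of 0.36 over 26 with none past 2-fold, with Cd79a and Ms4a1 at 0.60 and -0.71. The T cell genes had 0.39 over 27, with the receptor chains Cd3e, Cd3d and Cd3g at 0.41, 0.52 and 0.07. In that list 2 genes were higher and 0 lower, the costimulator Icos at 1.09 and Cd40lg, in patch areas of both arrays, at least 1.93-fold higher. The NK list had -0.35 over 22 with 5 lower and 0 higher. The NK receptors Klra8, Klra7 and Klra4 differed by -1.38, -1.25 and -1.23, and Ncr1 by -0.78. These Ly49 receptors are close relatives whose probes may share signal.

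Of 25 mast cell genes 5 were lower and 0 higher, with a median of -0.20, where 5.45% of all genes compared were lower. Without patch areas and column genes 1 of 18 was lower, with a median of -0.16. Cpa3, the mast cell carboxypeptidase, had 2.97 with PBS, 5.05 with AEPS, 5.17 with OVA, 4.95 with OVA+AEPS and 2.77 with OVA+Alum, while the proteases Mcpt4 and Tpsb2 differed by -0.20 and -0.03. The list's defining genes thus disagreed. Cpa3, Mrgprb2, Mrgprx2 and Fcer1a were of the column pattern. Of 22 red cell and platelet markers 6 were higher and 1 was lower, Gp1bb at -2.60 in a patch area of the OVA array. Relative to PBS the list median was -0.30 with OVA and -0.62 with OVA+AEPS. The first 3 genes of the list were lowest on the OVA array. Alas2, of heme synthesis, had 4.81, 5.88, 2.75, 3.57 and 4.37 in the same order, Hba-a1 9.78, 10.36, 8.48, 9.31 and 9.59, and Hbb-bs 7.34, 8.06, 5.77, 6.46 and 7.02. Their differences from OVA of 1.63, 1.11 and 1.25 therefore arose with an OVA+Alum level below that with PBS.

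The single largest differences were mostly in dim genes. Among genes above background on both arrays, Cacna1d, a calcium channel subunit, was higher by 4.08, and its levels were -4.05 with PBS, -0.73 with AEPS, -4.49 with OVA, -2.73 with OVA+AEPS and -0.41 with OVA+Alum. A further probe of Cacna1d gave -0.15, so its probes disagreed. Il22ra1, an interleukin 22 receptor chain, was higher by 3.55 in a patch area. Abcc8, of the column pattern, was higher by 2.47, Bicc1, an RNA-binding protein, by 2.19, the lymphatic growth factor Vegfd by 2.14, Ccnjl by 2.13 and Cys1 by 2.11. Tmem169, above background with alum and not with OVA, was at least 55.8-fold higher, which sets the alum level against the lowest level well above background on the OVA array or the probe's own, whichever is greater. By the same rule 5830411N06Rik, Pmis2, Lrrc6 and Clec2h were at least 8.91-, 6.57-, 5.55- and 5.44-fold higher, and Vwc2, in a patch area of the OVA+Alum array, at least 12.2-fold. These bounds hold for the main setting. Under alternative settings the log2 difference fell as low as 3.48 for Tmem169, 1.30 for 5830411N06Rik and 1.07 for Pmis2. It fell to 0.87 for Lrrc6, 1.08 for Clec2h and 1.53 for Vwc2.

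On the lower side, 9 of the 12 largest differences among genes above background on both arrays and all 6 of the largest bounds lay in patch areas of the OVA array. The largest were Map7d3 at -3.47 and Dppa4 at -3.45, and the bounds ran from at least 29.1-fold (Tmem45b) to at least 100.1-fold (Cldn22). Atp2b2 and Serpinb10 lay outside them, and Fabp7, at -2.90, was of the column pattern. Serpinb10, a serine protease inhibitor, had 0.93 with PBS, 0.42 with AEPS, 1.01 with OVA, 0.29 with OVA+AEPS and -2.14 with OVA+Alum, a difference of -3.15 with OVA+Alum alone low. Atp2b2, a calcium pump, differed by -3.42, and there the OVA array alone was high. Outside patches and column genes, in a ranking made after the values were seen, the next were Cyp26a1, which degrades retinoic acid, at -2.45, and Asz1 at -2.41. Cops2, a subunit of the COP9 signalosome, stood at -2.19 with -2.37 on a further probe, and Vamp7, a vesicle fusion protein, at -2.30. Cops2 had 0.38 with PBS, 1.46 with AEPS, 1.56 with OVA, 1.34 with OVA+AEPS and -0.63 with OVA+Alum, so PBS was also low. Cyp26a1 had -1.43, -4.25, -2.44, -4.33 and -4.89 in the same order, so both AEPS arrays were also low.

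Other symbol families were counted in the same way. The 82 cytosolic ribosomal protein genes had a median of -0.01, with 0 higher and 1 lower, and 25 MHC genes a median of 0.08 with 0 past 2-fold. The dim olfactory receptor genes, which encode the odour receptors of the nose, had 26 of 236 higher and 21 lower. Dim genes were often past 2-fold in either direction: below a mean level of -4 on the pair, 267 of 1902 were higher and 267 lower. Whether the olfactory receptor genes differ from other genes of their brightness was not tested. Of 310 numbered zinc finger genes, 64 were lower and 3 higher, with a median of -0.11, and 39 of 247 were lower outside patches and column genes. Relative to PBS the zinc finger median was 0.17 with OVA, 0.10 with AEPS, 0.10 with OVA+AEPS and 0.01 with OVA+Alum. Over all genes compared, the medians were -0.13, -0.16, -0.15 and -0.06 in the same order.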

How the data were processed

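Total RNA of peritoneal cells was labelled with Cy3 and hybridized to 1-colour Agilent arrays, 1 for each of 5 groups, per the labels' protocols. The deposited scanner files hold intensity values per spot, background-subtracted and detrended within each array by the authors with Agilent Feature Extraction 10.7.1.1, per the file headers. Flags per spot are other values of 0 or 1 in the deposited files. The authors' deposited table holds log2 values, normalized between arrays by a method not given in the sources used here, with a median of 4.66 in each column. It was used as an alternative.

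From the scanner files, control and outlier-flagged spots were left out, log2 signals were centred on each array's own 75th percentile, and spots of a probe were averaged. Of 55681 probes, 26576 matched 1 RefSeq gene symbol (GRCm38.p6, names only), 29105 matched none and 0 several. The brightest probe stood for a gene. A gene was compared if well above background on at least 1 of the pair and called at 2-fold, with no test. Depth has no meaning for arrays, and their number limits the precision. Named genes were the 12 largest differences and 6 largest bounds each way, list members past 2-fold or else the 3 largest, the first 3 genes of each list, and Actb, Gapdh, Hprt and Ppia. Some genes that this rule names are not reported here. The comparison and the lists were chosen with earlier results of these data known. Alternatives used limma 3.58.1 in R 4.3.3, and the rules on patches were chosen after seeing the data. A patch spot has at least 3 other bright spots within 4 spot spacings.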

Additional observations from a re-analysis of the deposited data

Results flagged for a closer look

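Probes without a RefSeq gene symbol entered no gene comparison. Of 15230 such probes well above background on at least 1 of the pair, 707 were at least 2-fold higher with OVA+Alum than with OVA and 908 were at least 2-fold lower. Only 229 of the 707 and 352 of the 908 were above background on both arrays. Among the genes compared, 4.15% were higher and 5.45% lower. The probes without a symbol were singled out because they lie outside the gene comparison.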

How the results depend on the processing

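No named gene past 2-fold and no list median past the technical error changed direction under any of the alternatives run. Some named genes within 2-fold did change sign. Gas1 ran from -0.13 to 2.41 and F10 from -0.56 to 0.03. Bounds given as at least a fold difference hold for the main setting only. Under the alternatives the log2 difference ran from 0.31 to 1.25 for Ppbp, from -1.77 to -0.17 for Tslp and from -7.50 to -3.87 for Cldn22. The 625 higher and 820 lower genes became 153 and 352 with normexp background correction (offset 50) and quantile normalization. The higher count became 1003 with no filter on dim probes and 396 when both arrays had to be above background. The share of higher genes among those past 2-fold, 43.3% in the main setting, was 32.0% with spike-in scaling, which moved the median of all genes from 0.08 to -0.02, and 30.3% with normexp. Without probes in patches, 545 genes were higher and 585 lower. Of 145 named genes past 2-fold, 104 stayed past it with normexp, 136 with spike-in scaling and 144 in the authors' deposited table, and 124 of 126 with a value stayed past it without patches. Over all settings 14 to 21 mesothelial and stromal markers were higher and 0 lower, and 9 to 14 large peritoneal macrophage markers were lower. The coagulation median relative to all genes ranged from -0.22 to 0.22, so it gives no direction. No paired analysis was possible because each group has 1 array, and no array could be left out. The spread between animals is unknown.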
